A study of Mus musculus with 8 samples.

Results

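The 10 genes described here carry cystine into the cell and make, recycle and use glutathione, and they were followed in spleen neutrophils that were sorted from WT and *Cxcr2-/-* animals. They are Slc7a11, Slc3a2, Ggt1, Gclc, Gclm, Gss, Gsr, Txnrd1, Gpx1 and Gpx4, 10 of the 55414 gene identifiers listed in the count tables, and each was matched by its Ensembl identifier. Slc7a11 and Ggt1 were chosen by their measured RNA levels, which had moved far and in opposite directions between these same libraries. Their values are therefore a description without a test. The other 8 genes were named for their place in the pathway, though with earlier results of these data known. The study asked what neutrophils lose when they cannot make CXCR2, the receptor for the CXC chemokines that call neutrophils out of the bone marrow and into inflamed tissue. The 4 WT mice (strain FVB-WT) and the 4 *Cxcr2-/-* mice (strain FVB-Cxcr2-/-, backcrossed to FVB) were 10 weeks old and were kept free of specific and opportunistic pathogens (SOPF housing). The knockout is of the germline, so the receptor is missing in all cells of the animal and not in neutrophils alone. Spleen cells were enriched for CD11b and then sorted as CD45+ CD11b+ Ly6G+ cells without F4/80, a macrophage marker, and 1 RNAseq library was made per mouse.

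Glutathione, a tripeptide of glutamate, cysteine and glycine, is the most abundant small thiol of animal cells. Cysteine limits its synthesis, and cells obtain it mainly as cystine, the oxidized dimer, or by breaking down glutathione outside the cell. In neutrophils, the NADPH oxidase spends NADPH to make superoxide, and the reductases of glutathione and thioredoxin draw on the same NADPH to keep the thiols of the cell reduced.

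Between 34220182 and 46233555 counts fell on genes in the WT libraries and between 37549648 and 43789253 in the *Cxcr2-/-* libraries, and counts that met no gene made up 31.4% to 41.5% and 26.7% to 31.9%. Levels are CPM, the counts of a gene scaled to a common library size after TMM normalization, shown as mean ± SD (n = 4 per group), and changes are given as log2 fold change of *Cxcr2-/-* over WT with its standard error (SE). Genes were compared with edgeR's quasi-likelihood test, adjusted over all 16778 genes tested (Benjamini-Hochberg), and a gene passed with an adjusted p under 0.05. The labels and methods give each library to its own mouse, so p-values measure the spread between these animals. Cxcr2 RNA was at 1956 ± 221 CPM in WT and at 17.1 ± 3.46 CPM in *Cxcr2-/-* libraries (log2 fold change of -6.84, adjusted p = 1.54e-11). The defining genes of neutrophils were expressed in all libraries, with Ly6g at 226 and 539 CPM in the WT and knockout mice and Csf3r at 6960 and 3334 CPM.

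All 10 genes passed the filter on low counts. Of the 8 genes that were not picked for their change, 3 rose in *Cxcr2-/-* neutrophils (Gclm, Txnrd1 and Gpx1) and 3 fell (Gclc, Gss and Gsr), while Slc3a2 and Gpx4 did not pass. Of all genes tested, 23.6% passed as higher and 20.7% as lower. With a change of at least 1.5-fold required in addition, the counts were 2 higher (Gclm and Gpx1) and 2 lower (Gclc and Gss), against 15.5% and 15.3% of all genes tested. The 4 WT values did not overlap the 4 *Cxcr2-/-* values in 6 of these 8 genes, and this was so in 41.6% of all genes tested. The median log2 fold change of the 8 genes was -0.16, and that of all genes tested was 0.01. The 3 genes of glutathione synthesis did not move together, since the modifier subunit rose and the catalytic subunit and the second enzyme fell.

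**Figure D1:**
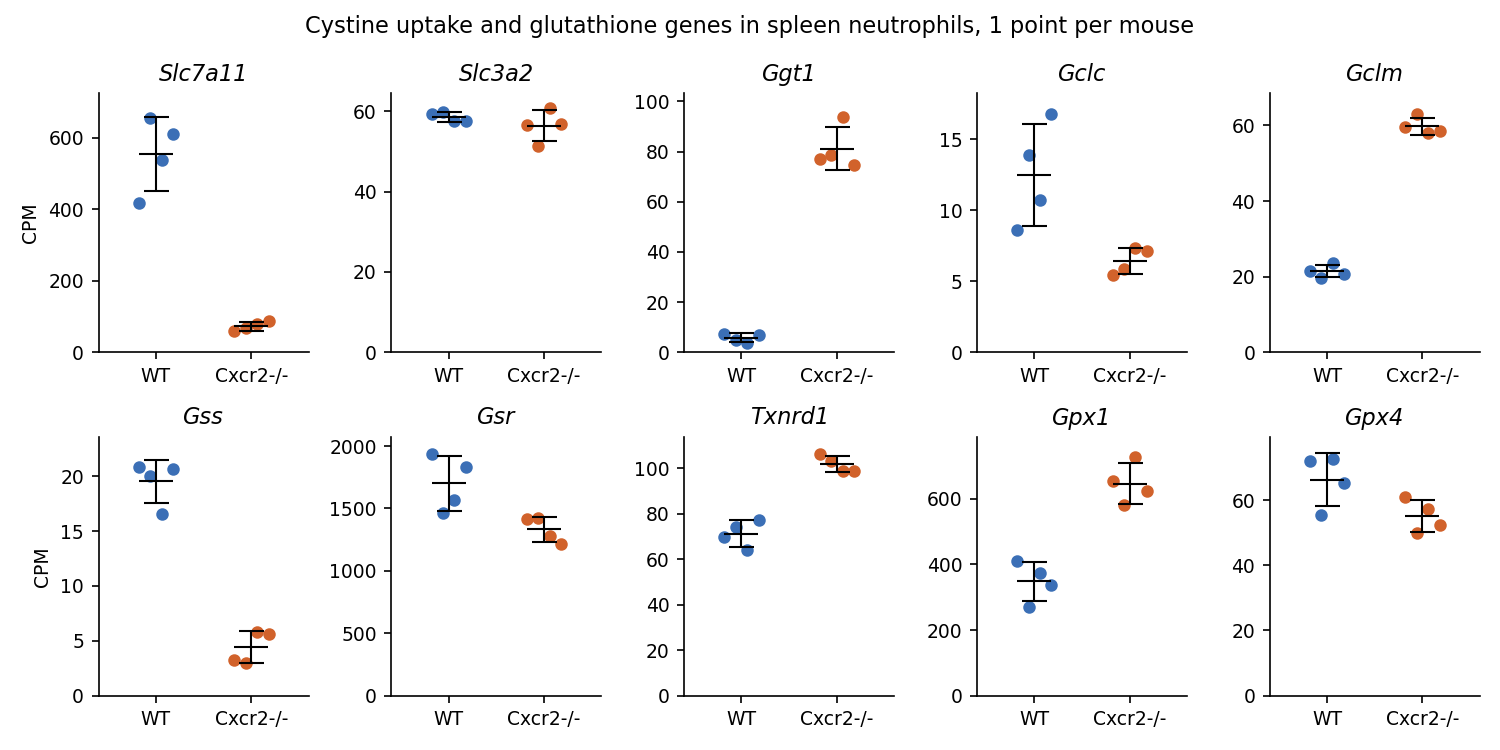
CPM of each of the 10 genes (vertical axis, starting at 0) in 4 WT and 4 Cxcr2-/- mice, 1 point per mouse, with bars for mean ± SD. The groups overlap only for Slc3a2 and Gpx4, and Slc7a11 (417 to 656 against 58.2 to 87.7 CPM) and Ggt1 (3.53 to 7.27 against 74.8 to 93.8 CPM), the 2 genes picked for their change, differ by the largest fold.

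Slc7a11, the light chain of system xc- that imports cystine in exchange for glutamate, was much lower in the knockout mice. Its RNA was at 417, 656, 537 and 610 CPM in WT mice 1 to 4 and at 58.2, 68.5, 77.7 and 87.7 CPM in *Cxcr2-/-* mice 1 to 4. All knockout mice were far below all WT mice, and WT mouse 1 was the lowest of its group. The means were 555 ± 104 and 73.0 ± 12.6 CPM, a level 7.60-fold lower in *Cxcr2-/-* (log2 fold change of -2.93, SE 0.16). In bulk RNA from sorted cells, a change in the share of cells that make an RNA and a change in RNA per cell cannot be told apart. The gene lies on the minus strand of chromosome 3 (GRCm38, chr3:49892526-50443614). Gm37498, an unspliced transcript model within an intron of Slc7a11 and on its strand, was at 8.03 to 19.1 CPM in WT and 1.91 to 2.35 CPM in *Cxcr2-/-* libraries, and was named after its values were seen. The libraries were depleted of ribosomal RNA and so keep unspliced RNA, and reads of Gm37498 cannot be told apart from those of the unspliced host gene.

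The promoter of Slc7a11 is shown because it is a known target of the transcription factor ATF4, which binds response elements shared with C/EBP proteins. In the 250 bases before its start in RefSeq (GRCm38.p6, minus strand, chr3:50443614-50443863), the capitals mark the letters TGATGNAA on either strand, from -66 to -59 and, in reverse, from -47 to -40.
Slc7a11: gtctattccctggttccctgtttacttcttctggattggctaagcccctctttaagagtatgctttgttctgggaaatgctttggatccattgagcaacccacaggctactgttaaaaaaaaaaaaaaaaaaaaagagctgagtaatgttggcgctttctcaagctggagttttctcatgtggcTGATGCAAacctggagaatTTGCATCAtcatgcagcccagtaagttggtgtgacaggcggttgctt
These letters occur in 3.45% of the 32851 promoter windows of the same length in the table, and among the 16 windows of the 8 members that have an entry only this one holds them.

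Slc3a2, the heavy chain CD98 that brings Slc7a11 and several other amino acid carriers to the cell surface, differed little between mice. It was at 59.4, 59.9, 57.7 and 57.6 CPM in WT and at 56.5, 51.4, 60.9 and 56.9 CPM in *Cxcr2-/-* mice. The groups overlapped, and the spread between WT mice was the smallest among the 10 genes, at 2.03% of the mean. The log2 fold change was -0.06 (SE 0.08, adjusted p = 0.622), and its 95% interval corresponds to a level between 0.849 and 1.09 times that of WT. Counted per kilobase of exon within each library, the ratio of Slc7a11 to Slc3a2 was 1.78, 2.78, 2.36 and 2.68 in WT and 0.261, 0.338, 0.324 and 0.391 in *Cxcr2-/-* mice. Per kilobase, the light chain RNA exceeded that of the heavy chain in every WT mouse and was below it in every knockout mouse. This crossing rests on the exon lengths used, 13922 bases for Slc7a11 and 3529 for Slc3a2. In CPM, Slc7a11 was above Slc3a2 in every knockout mouse as well, at 58.2 to 87.7 against 51.4 to 60.9 CPM. The ratio is not tested, since Slc7a11 was picked for its change.

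Ggt1 encodes γ-glutamyl transferase, a surface enzyme that starts the breakdown of extracellular glutathione and so returns its cysteine to the cell. Its RNA was at 7.27, 5.02, 3.53 and 7.0 CPM in WT and at 77.3, 78.5, 93.8 and 74.8 CPM in *Cxcr2-/-* mice. Every knockout mouse was above every WT mouse. The means were 5.71 ± 1.77 and 81.1 ± 8.59 CPM, a level 14.2-fold higher in *Cxcr2-/-* (log2 fold change of 3.83, SE 0.21). The low WT level carried the larger relative spread, 30.9% of the mean against 10.6%.

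Ggt1 has several starts, and the table holds 4 windows for it. The windows that hold the core of the antioxidant response element, the site of NRF2, are shown with those of Gclm and Txnrd1, which are known NRF2 targets. The capitals mark TGACNNNGC on either strand, in the 250 bases before each start in RefSeq (GRCm38.p6), all of them on the plus strand of the genome: chr10:75568412-75568661 for the first Ggt1 window (reverse, -36 to -28), chr10:75571310-75571559 for the second (forward, -83 to -75), chr3:122245307-122245556 for Gclm (reverse, -134 to -126) and chr10:82858956-82859205 for Txnrd1 (reverse, -92 to -84).
Ggt1, first window: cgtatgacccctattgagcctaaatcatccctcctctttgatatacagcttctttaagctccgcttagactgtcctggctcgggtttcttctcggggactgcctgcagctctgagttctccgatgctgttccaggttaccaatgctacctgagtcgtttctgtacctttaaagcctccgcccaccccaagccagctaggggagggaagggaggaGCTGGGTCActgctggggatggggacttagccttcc
Ggt1, second window: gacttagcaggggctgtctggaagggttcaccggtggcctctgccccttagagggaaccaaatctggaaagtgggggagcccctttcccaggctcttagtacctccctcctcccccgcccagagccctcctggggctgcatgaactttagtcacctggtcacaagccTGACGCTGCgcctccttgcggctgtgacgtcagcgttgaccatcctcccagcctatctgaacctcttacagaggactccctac
Gclm: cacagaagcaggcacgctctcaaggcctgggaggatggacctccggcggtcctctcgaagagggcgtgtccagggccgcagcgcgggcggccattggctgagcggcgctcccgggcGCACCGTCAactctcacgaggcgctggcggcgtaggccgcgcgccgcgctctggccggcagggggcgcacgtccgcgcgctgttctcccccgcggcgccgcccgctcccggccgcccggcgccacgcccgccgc
Txnrd1: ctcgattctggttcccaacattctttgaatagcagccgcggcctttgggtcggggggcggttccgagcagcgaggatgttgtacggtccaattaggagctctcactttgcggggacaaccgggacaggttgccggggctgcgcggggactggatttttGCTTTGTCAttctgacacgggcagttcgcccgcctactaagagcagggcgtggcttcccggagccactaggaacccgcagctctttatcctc
The core occurs in 10.2% of all promoter windows of this length, and in these 4 of the 16 member windows. The windows of Gss, Gpx1, Gpx4 and Slc3a2 hold neither motif. Gclc and Gsr were not matched in the table.

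Gclc and Gclm encode the catalytic and the modifier subunit of glutamate cysteine ligase, the enzyme that sets the rate of glutathione synthesis. They moved in opposite directions. Gclc was at 8.58, 13.9, 10.7 and 16.8 CPM in WT and at 5.46, 5.87, 7.32 and 7.12 CPM in *Cxcr2-/-* mice. The groups did not overlap, though WT mouse 1 lay close to the knockout range. The means were 12.5 ± 3.59 and 6.44 ± 0.918 CPM, a fall of 1.94-fold (log2 fold change of -0.95, SE 0.19, adjusted p = 0.00124). Gclm was at 21.5, 19.7, 23.6 and 20.8 CPM in WT and at 59.5, 63.0, 58.0 and 58.6 CPM in *Cxcr2-/-* mice. Its groups were wide apart and tight, with relative spreads of 7.57% and 3.77%. It rose 2.79-fold (log2 fold change of 1.48, SE 0.09, adjusted p = 3.66e-08). An antisense transcript that shares 296 exon bases with Gclm, Gm17494, stood at no more than 2.24 CPM in any library.

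The balance of the subunits was compared within each library, where the scaling between libraries plays no part. The ratio of Gclc to Gclm, in counts per kilobase, was 0.665, 1.18, 0.761 and 1.35 in WT and 0.153, 0.156, 0.211 and 0.203 in *Cxcr2-/-* mice. Per kilobase, the RNA of the subunits stood near 1 to 1 on average in WT (0.988 ± 0.327). Gclm was in clear excess in every knockout mouse (0.181 ± 0.0305). The level of the ratio depends on the exon lengths used, and in CPM Gclm was above Gclc in every WT mouse too. Its change between the groups does not depend on these lengths. The ratio was 5.30-fold lower in *Cxcr2-/-* (exact permutation test, two-sided, p = 0.0286, the smallest that 4 mice against 4 allow). Since Gclc fell and Gclm rose with no overlap between the groups, the separation of the ratio follows from theirs and is no further evidence.

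Gss, glutathione synthetase, adds glycine in the second and last step. Its RNA was at 20.8, 20.0, 16.6 and 20.7 CPM in WT and at 3.29, 3.02, 5.77 and 5.59 CPM in *Cxcr2-/-* mice. No knockout mouse came near the WT range, and knockout mice 1 and 2 were the lowest, as they were for Slc7a11 and Gclc. The means were 19.5 ± 2.0 and 4.42 ± 1.47 CPM, a fall of 4.41-fold (log2 fold change of -2.14, SE 0.20, adjusted p = 3.11e-06), the largest change among the 8 genes not picked. The value of Gss is uncertain in 1 respect. The gene lies on the minus strand of chromosome 2 (chr2:155563181-155592810), and 86.4% of its 5915 exon bases lie within the span of Acss2, an acetyl-CoA synthetase gene on the other strand, with 395 exon bases in common. Acss2 fell as well, from 30.3 to 34.3 CPM in WT to 11.6 to 15.3 CPM (log2 fold change of -1.27, adjusted p = 6.64e-07). Of 366 genes whose exons lie wholly within exons of a gene on the opposite strand, 363 (99.2%) were listed at 0 in every library, against 44.5% of 52133 genes in all, and of 418 genes covered on their own strand 417 were at 0. The counts thus do not separate the strands, and reads from unspliced Acss2 RNA cannot be told apart from those of Gss.

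Gsr and Txnrd1 encode the NADPH-dependent reductases of oxidized glutathione and of thioredoxin, Txnrd1 being a selenoenzyme. Gsr was at 1938, 1467, 1569 and 1832 CPM in WT and at 1414, 1420, 1281 and 1212 CPM in *Cxcr2-/-* mice. The groups did not overlap, but WT mouse 2 and the highest knockout mouse were close. The level fell 1.28-fold, from 1702 ± 220 to 1332 ± 103 CPM (log2 fold change of -0.35, SE 0.12, adjusted p = 0.0254). This call was lost when WT mouse 1, WT mouse 4, *Cxcr2-/-* mouse 3 or *Cxcr2-/-* mouse 4 was left out (adjusted p = 0.0811, 0.0874, 0.0598 and 0.0639). Txnrd1 moved the other way. It was at 69.8, 74.0, 64.0 and 77.3 CPM in WT and at 106, 103, 98.9 and 98.9 CPM in *Cxcr2-/-* mice, with no overlap and a spread of 3.50% of the mean among the knockout mice. It rose 1.43-fold (log2 fold change of 0.51, SE 0.09, adjusted p = 3.02e-04), below the fold of 1.5. Eid3, which lies in an intron of Txnrd1 on the same strand, was at 3.65 to 7.78 CPM over all libraries.

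Gpx1 and Gpx4 are selenoenzymes that use glutathione to reduce hydrogen peroxide in the cytosol (Gpx1) and lipid hydroperoxides in membranes (Gpx4). Gpx1 was at 410, 272, 374 and 338 CPM in WT and at 654, 582, 728 and 624 CPM in *Cxcr2-/-* mice. All knockout mice exceeded all WT mice. The level rose 1.86-fold, from 348 ± 59.1 to 647 ± 61.7 CPM (log2 fold change of 0.89, SE 0.13, adjusted p = 7.27e-05). Gpx4 was at 71.9, 55.3, 72.7 and 65.3 CPM in WT and at 61.1, 50.1, 57.2 and 52.4 CPM in *Cxcr2-/-* mice. The groups overlapped through WT mouse 2, which lay below 2 of the knockout mice. The log2 fold change of Gpx4 was -0.26 (SE 0.11, adjusted p = 0.055), and its 95% interval corresponds to between 0.712 and 0.974 times the WT level. The adjusted p of Gpx4 moved between 0.00795 and 0.152 over the alternatives, and passed in 8 of the 17. Gpx4-ps2, a processed copy of Gpx4, was at no more than 2.49 CPM in any library.

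**Figure D2:**
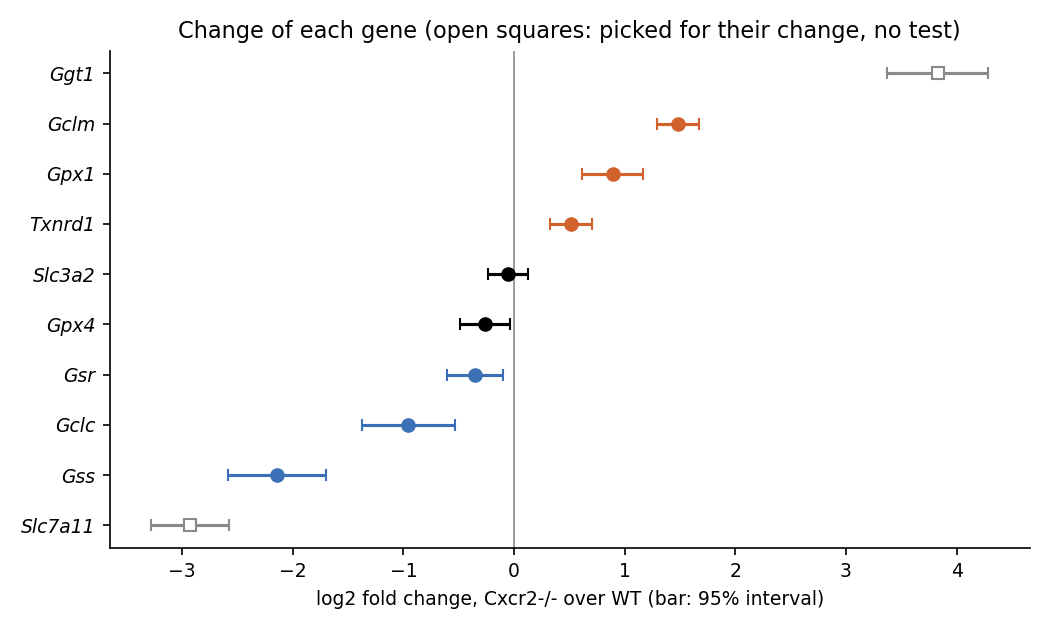
Log2 fold change of Cxcr2-/- over WT (horizontal axis) for each gene, with the 95% interval as a bar; open grey squares are the 2 genes picked for their change, orange passed as higher, blue as lower and black did not pass. From top to bottom the values run from 3.83 (Ggt1) to -2.93 (Slc7a11), with Slc3a2 at -0.06 and Gpx4 at -0.26 nearest to 0.

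Further ratios within a library were computed after the values had been seen. Gss to Gclm, per kilobase, was 0.978 ± 0.155 in WT and 0.0792 ± 0.0284 in *Cxcr2-/-* mice, 12.9-fold lower. Gsr to Txnrd1 was 61.6 ± 8.37 and 33.6 ± 1.66, 1.82-fold lower. Gpx1 to Gpx4 was 6.26 ± 0.400 and 14.0 ± 1.0, 2.24-fold higher. The groups did not overlap for these ratios, which were not tested, since the genes were paired with their changes known. The ratio that includes Gss is subject to the limit given for that gene.

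**Figure D3:**
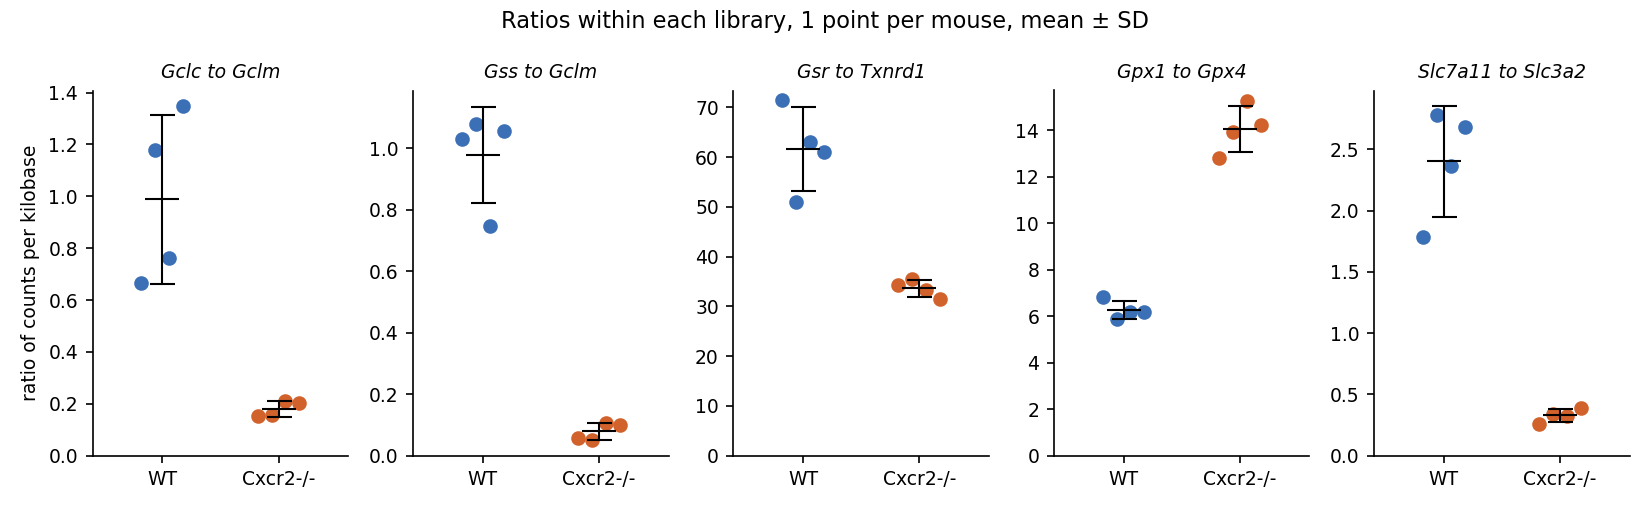
Ratio of counts per kilobase of exon (vertical axes, starting at 0) for 5 pairs of genes within each library, 1 point per mouse, with bars for mean ± SD over 4 mice. The WT and Cxcr2-/- points do not overlap in any panel, and only Gclc to Gclm was tested. Slc7a11 to Slc3a2 passes from above 1 in WT (1.78 to 2.78) to below 1 (0.261 to 0.391). This crossing rests on the exon lengths used.

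Levels were compared between genes per kilobase of exon, with the union of all exons of a gene as its length. The transcripts in use may be shorter, so the order of the genes depends on this choice. In WT neutrophils, Gsr stood first at 618 ± 79.9 CPM per kilobase, followed by Gpx1 at 242 ± 41.0. Slc7a11 (39.9 ± 7.49) and Gpx4 (38.5 ± 4.67) came next and overlapped. Slc3a2 followed at 16.6 ± 0.337 and Txnrd1 at 10.1 ± 0.809. The 3 genes of synthesis, Gclm, Gclc and Gss, overlapped at 3.4 ± 0.258, 3.32 ± 0.954 and 3.30 ± 0.339, and Ggt1 was last at 1.67 ± 0.517. In *Cxcr2-/-* neutrophils, Gsr (484 ± 37.3) and Gpx1 (449 ± 42.8) overlapped at the top. Gpx4 followed at 32 ± 2.86, and Ggt1, last in WT, took the fourth place at 23.8 ± 2.52. Slc3a2 (16 ± 1.11) and Txnrd1 (14.4 ± 0.503) overlapped. Gclm stood at 9.50 ± 0.359 and Slc7a11 at 5.25 ± 0.907, in the eighth place, above Gclc (1.71 ± 0.244) and Gss (0.747 ± 0.248). Gsr and Gpx1 thus stayed at the top in both groups, while Slc7a11 went from the third to the eighth place and Ggt1 from the last to the fourth.

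**Figure D4:**
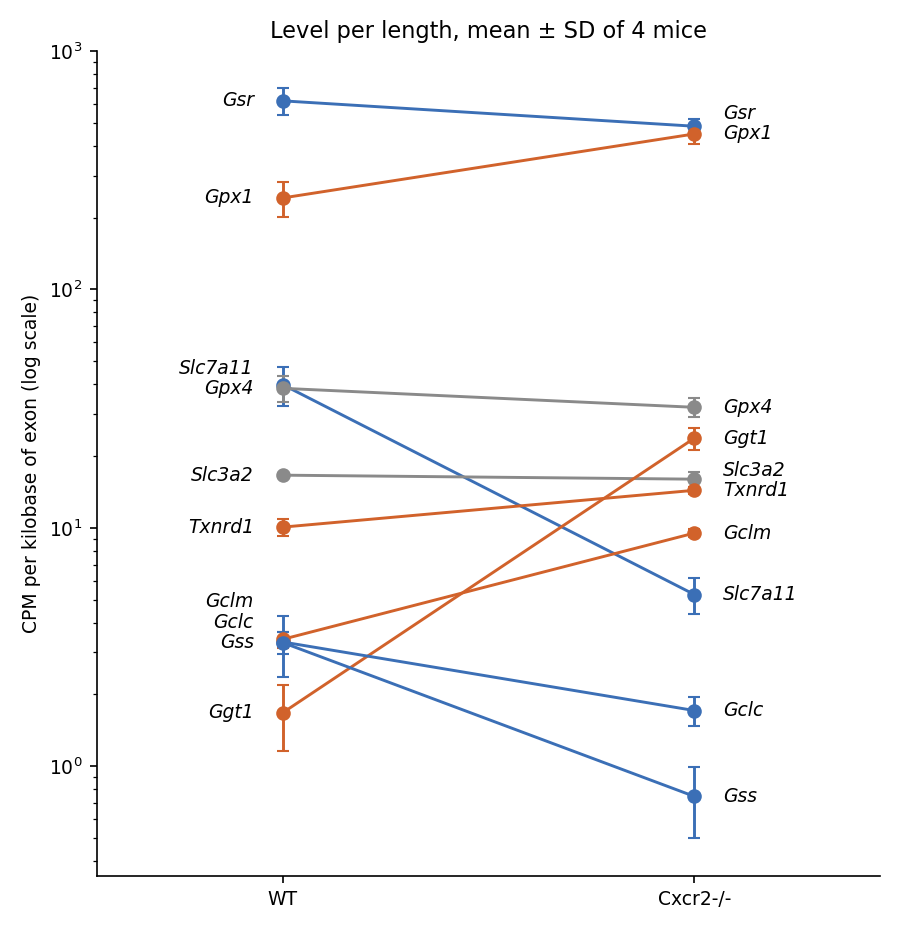
CPM per kilobase of exon (vertical axis, log scale) of each gene in WT and Cxcr2-/- neutrophils, mean ± SD of 4 mice, with lines joining the means of a gene; blue lines mark genes with a lower mean in Cxcr2-/-, orange a higher one, and grey the 2 genes that did not pass. The lines of Slc7a11 (39.9 to 5.25) and Ggt1 (1.67 to 23.8) cross, and Gclm, Gclc and Gss start together near 3.3 and part.

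The genes whose profiles over the 8 libraries were most like those of Slc7a11 and Ggt1 were sought among 7501 other genes whose log2 CPM averaged 3 or more. Likeness was the root mean square difference in log2 CPM after subtraction of the WT mean, and since it includes the change for which the genes were picked, it is a description. For Slc7a11, the nearest was Peak1, a scaffold of the cytoskeleton (difference of 0.18), at 84.7 to 147 CPM in WT and 13.4 to 18.8 CPM in *Cxcr2-/-* mice. Ptgs2os2 (0.27), Gm37199 (0.27), Zbtb16 (0.28) and Hcar2, a receptor of niacin (0.30), followed. For Ggt1, the nearest was Prok2, a small secreted protein that neutrophils make (0.24), at 11.3 to 19.4 CPM in WT and 174 to 211 CPM in *Cxcr2-/-* mice, and then Fam20c, a kinase of secreted proteins (0.35). Stfa2 (0.79), the unnamed ENSMUSG00000118839 (0.83) and Npl, an enzyme of sialic acid breakdown (0.88), were less alike.

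The other genes of the pathway were taken by list, and each list is described by how many of its tested genes passed in each direction and by its median log2 fold change, beside the 23.6% and 20.7% of all genes tested. Of the 4 tested light chains that pair with Slc3a2, 2 rose, and Slc7a6 and Slc7a8 did not pass. Slc7a5, the leucine carrier that exports glutamine, rose from 8.39 ± 0.286 to 30.1 ± 6.01 CPM (adjusted p = 1.89e-07) and Slc7a7 from 33.9 to 56.7 CPM (adjusted p = 4.07e-05). Slc7a11 and Slc7a5 therefore moved in opposite directions, and the heavy chain they share did not pass. Among 7 other carriers of cystine, cysteine, glutamate or glutathione (median 0.59), 4 rose and 1 fell. Those that rose were the lysosomal cystine exporter Ctns (20.8 to 33 CPM), the mitochondrial glutathione carrier Slc25a39 (14.3 to 21.4 CPM), the efflux pump Abcc4 (36.1 to 54.8 CPM) and the glutamine carrier Slc1a5 (3.89 to 7.38 CPM). The glutamate carrier Slc1a2, named after its values were seen, fell from 3.53 to 0.858 CPM (adjusted p = 2.62e-05).

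In the γ-glutamyl cycle beside the members, 8 genes were tested, of which 1 rose and 3 fell (median -0.45). Ggct, which releases the amino acid from its γ-glutamyl dipeptide, fell from 4.91 ± 0.768 to 2.25 ± 0.525 CPM (adjusted p = 5.93e-04). Chac1, which degrades glutathione inside the cell and is a target of ATF4, fell from 29.2 ± 2.98 to 13.5 ± 1.19 CPM (adjusted p = 2.64e-06). Its relative Chac2 went the other way, from 2.40 to 5.09 CPM (adjusted p = 3.70e-04), and Cbs, an enzyme of cysteine synthesis, fell from 2.79 to 1.83 CPM (adjusted p = 0.0374), and both were named after their values were seen. Ggt5, another γ-glutamyl transferase, was at 121 CPM in WT against 117 CPM (adjusted p = 0.799), and was likewise named after its values were seen. Of 21 other peroxidases, glutathione transferases and glutaredoxins (median 0.16), 7 rose and 1 fell. The microsomal transferases Mgst1 (137 to 217 CPM) and Mgst2 (12.3 to 33.3 CPM) and the esterase Esd (33.9 to 56.8 CPM) were among those that rose, Gsto2 was the one that fell (2.60 to 1.25 CPM, named after its values were seen), and the glutaredoxin Glrx was at 411 and 460 CPM (adjusted p = 0.206).

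In the thioredoxin system, 5 of 17 tested genes rose and 5 fell (median 0.00). Txn1, the main substrate of Txnrd1, was at 342 ± 69.0 and 406 ± 16.7 CPM (adjusted p = 0.152). Its inhibitor Txnip fell from 1500 ± 339 to 660 ± 116 CPM (adjusted p = 9.25e-05), while Nxn (34.9 to 75.8 CPM) and the peroxiredoxin Prdx5 (371 to 771 CPM) rose. Of 16 tested genes listed for NADPH supply, 10 rose and 3 fell (median 0.63). The list takes in further steps of the pentose phosphate pathway and mitochondrial enzymes, so not each of its genes makes NADPH for Gsr and Txnrd1. G6pdx, the first enzyme of the pentose phosphate pathway, rose from 468 ± 47.7 to 1403 ± 174 CPM (adjusted p = 2.59e-07), Pgls from 24.1 to 57.6 CPM (adjusted p = 2.35e-06) and Idh1 from 29.5 to 74.7 CPM (adjusted p = 7.06e-07).

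Among the regulators of NRF2, 3 of 11 rose and 5 fell (median -0.05). Nfe2l2, which encodes NRF2, was at 251 ± 5.49 and 214 ± 7.63 CPM (log2 fold change of -0.23, adjusted p = 0.0437), and its inhibitor Keap1 rose from 14.5 ± 1.27 to 26.0 ± 4.06 CPM (adjusted p = 7.92e-05). Of the partners, Maff (28.5 to 9.14 CPM) and Mafk (108 to 58.4 CPM) fell. Mafg, named after its values were seen, rose from 133.5 to 194.1 CPM (adjusted p = 0.00874). The repressor Bach1 was at 257 and 248 CPM (adjusted p = 0.713). NRF2 targets outside the members went both ways, with 11 of 24 higher and 6 lower (median 0.25). G6pdx and Idh1 rose and Osgin1 fell from 188 to 90.9 CPM. The members went both ways too, with Gclm, Txnrd1 and Gpx1 higher and Gclc, Gss and Gsr lower. Of the genes picked for their change, Slc7a11 was lower and Ggt1 higher. For ATF4 and its targets, 12 of 30 rose and 9 fell (median 0.06). Atf4 itself fell from 183 ± 12.3 to 131 ± 9.62 CPM (adjusted p = 8.26e-04), with Ddit3 (41.1 to 16.2 CPM) and Ppp1r15a (206 to 38.6 CPM), while Slc7a5 rose. Several genes stand in more than 1 list.

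Of 9 genes that make selenoproteins, 3 rose and 1 fell (median 0.20). Sephs1 rose from 4.76 to 12.8 CPM (adjusted p = 2.58e-06), and Sephs2, which makes the selenium donor, fell from 230 ± 52.1 to 96.2 ± 9.95 CPM (adjusted p = 1.76e-05). Among 16 other selenoproteins, 5 rose and 5 fell (median 0.07), with Selenon (381 to 143 CPM) and Selenop (63.9 to 32.8 CPM) lower, and the selenoenzymes among the members were likewise split, Gpx1 and Txnrd1 higher and Gpx4 not passing. Of 21 regulators of ferroptosis, the iron-dependent death by lipid peroxidation that Slc7a11 and Gpx4 oppose, 9 rose and 5 fell (median 0.44). Acsl4, which loads membranes with oxidizable fatty acids, rose from 19.2 to 30.1 CPM (adjusted p = 1.39e-04), as did Aifm2, which protects from lipid peroxidation without glutathione, from 7.09 to 19.5 CPM (adjusted p = 2.91e-07). The iron exporter Slc40a1 (1153 to 594 CPM) and the ferritin chain Fth1 (1724 to 901 CPM) fell.

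**Figure D5:**
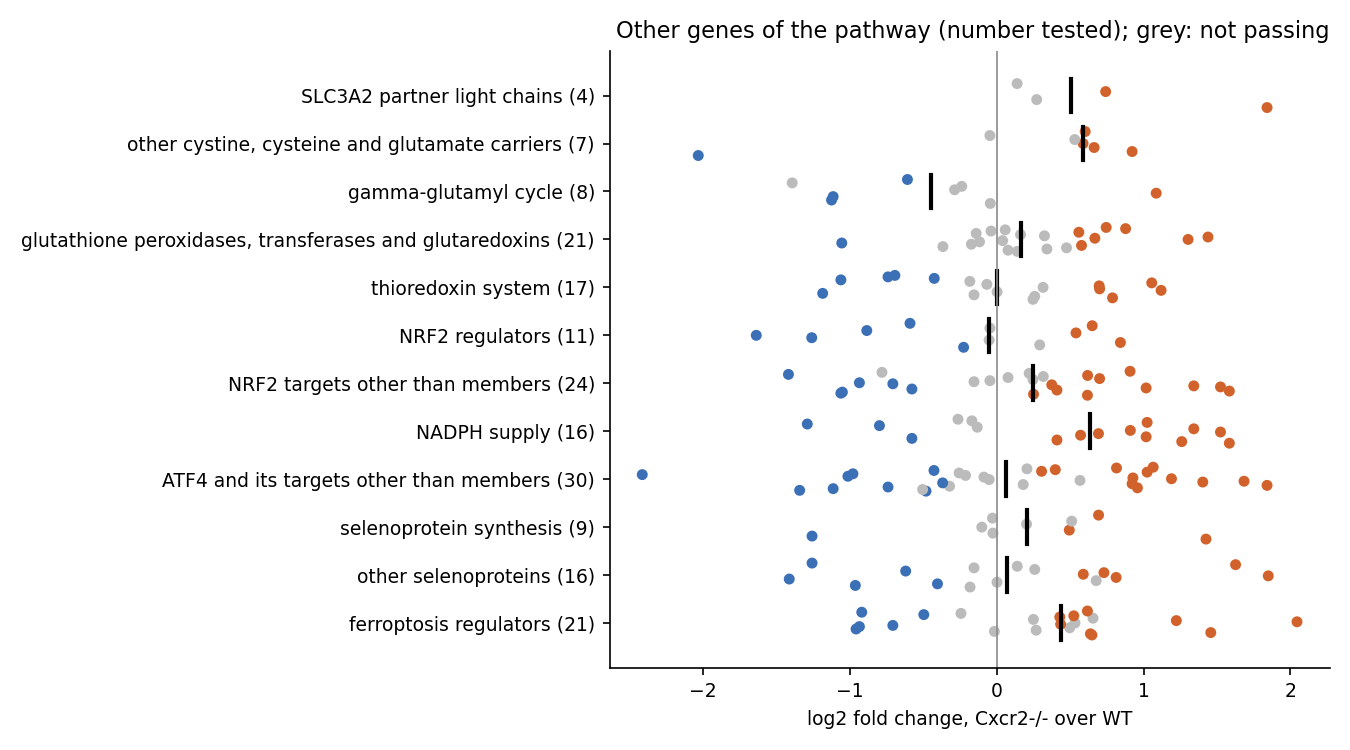
Log2 fold change of Cxcr2-/- over WT (horizontal axis) of the tested genes of each list (rows, with the number tested), outside the 10 genes; orange passed as higher, blue as lower and grey did not pass, and the black bar is the median of the list. The medians lie between -0.45 (gamma-glutamyl cycle) and 0.63 (NADPH supply), and 11 of the 12 lists hold genes that passed in each direction.

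Markers of maturation moved with genotype as well, while most of the tested markers of other cells did not pass. The counts below stand beside the 23.6% and 20.7% of all genes tested that passed as higher and as lower. All 5 tested genes of primary granules were higher in *Cxcr2-/-* libraries, with a summed level of 4.37 to 17.3 CPM in WT and 70.5 to 386 CPM, as were all 6 genes of secondary granules and all 7 of proliferation (279 to 329 and 867 to 971 CPM). The part of these maturation markers in the values above was not tested. Of 7 dendritic cell markers, 2 were lower, with a sum of 682 to 1236 CPM in WT and 177 to 330 CPM, most of it Itgax (586 and 132 CPM). Of 8 B cell markers, 4 were lower (34.5 to 77.3 and 17.7 to 39.0 CPM). Of 12 monocyte and macrophage markers, 2 were lower and 1 higher (465 to 561 and 220 to 365 CPM, mostly Csf1r). T and NK cell markers summed to 98.8 to 119 and 92.3 to 140 CPM (1 of 6 lower), nearly all of it Cd3d, erythroid and platelet markers to 8.46 to 12.5 and 5.48 to 17 CPM (1 of 6 lower), and eosinophil and basophil markers to 48.8 to 69.2 and 38.0 to 65.9 CPM (1 of 4 higher, 2 lower). With the mean level of the markers of other cells as a covariate, the same 6 genes passed. The log2 fold changes were then -0.95 for Gclc, 1.46 for Gclm, -2.0 for Gss, -0.44 for Gsr, 0.48 for Txnrd1 and 0.91 for Gpx1. Those of Slc7a11 and Ggt1 were -2.85 and 3.79. The covariate is 1 mean over markers that moved in different directions. It lay at 1.72 to 2.27 in WT and at 1.44 to 2.17 in *Cxcr2-/-* libraries. It does not measure any 1 cell type, so the part of each cell type was not tested.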

How the data were processed

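RNAseq was performed on sorted spleen neutrophils, 1 library per mouse, from 4 WT and 4 *Cxcr2-/-* animals, and the group and replicate number of each library came from the titles in the labels. The authors depleted ribosomal RNA, prepared directional libraries, checked the reads with FastQC, trimmed them, used STAR for alignment to mm10 and HTSeq for counting (versions, strand setting and gene annotation not given in the sources used here). They deposited whole-number counts per Ensembl identifier, without normalization. The totals that HTSeq writes below the genes were kept out of library sizes and tests.

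Of 55414 identifiers, GENCODE M21 (GRCm38) gave symbols, positions and exon lengths (the union of the exons of a gene) for 52133 and none for 3281. The 10 genes and the lists were chosen with earlier results of these data known. Counts were compared in R 4.3.3 with edgeR 4.0.16 (quasi-likelihood test with robust shrinkage, TMM, filterByExpr, Benjamini-Hochberg over 16778 genes), with genotype as the only term. The biological coefficient of variation was 0.202. The steps were tested on simulated data. Every pair of replicates differed by more than sampling noise, at a depth of 34220182 to 46233555 counts on genes. The ratio of Gclc to Gclm was compared with an exact permutation test. Genes named beside the members were those fixed by name, up to 3 per list with the largest change among genes that passed and whose log2 CPM averaged 3 or more, the nearest profiles and defining markers. Others are named as chosen after their values were seen. Promoter windows came from RefSeq (GRCm38.p6), with 8 of the 10 genes matched, and the 250 bases before each start were searched on both strands. The alternatives were DESeq2 1.42.0, 3 other scalings, 2 other filters, a block for the replicate number, a covariate for other cells and each library left out in turn. edgeR without robust shrinkage was added once results were known. All 8 libraries entered the comparison.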

Additional observations from a re-analysis of the deposited data

Results flagged for a closer look

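No sample stood apart from the other 3 of its group in any of the 10 genes by Dixon's test at 95% (20 groups of 4 tested, and chance marks about 1 in 20).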

How the results depend on the processing

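Over the 17 alternatives, no log2 fold change of the 10 genes changed sign. Of the 136 values of the 8 genes with a test, 124 kept their side of the threshold, 4 lost the call and 8 gained one, and the 34 values of Slc7a11 and Ggt1, which have no test, moved by less than their spread between mice. The 4 that lost it were those of Gsr with 1 library left out (adjusted p from 0.00149 to 0.0874 over all alternatives), and the 8 that gained it were those of Gpx4, which passed with RLE (adjusted p = 0.0491), upper quartile (0.00795), total counts (0.00802), no filter (0.0469), the replicate block (0.0319), a minimum of 10 counts per library (0.0274), without WT mouse 2 (0.0103) and without *Cxcr2-/-* mouse 1 (0.0318). The cause was not tested. The number of the 8 genes that passed was 6 with DESeq2 and 5 to 7 over all alternatives. Genes called with at least 1.5-fold numbered 5175, and 4558 to 5496 over the alternatives, 4753 to 5284 with 1 library left out. Upper-quartile scaling moved the median of all genes to -0.11 and the calls from 2602 higher and 2573 lower (50.3% higher) to 1956 and 3168 (38.2%), and Slc3a2 then stood at -0.17. The 24 medians of the pathway lists under upper quartile and total counts, taken relative to all genes, stayed close to those of TMM. For NADPH supply they were 0.6185 and 0.6212, against 0.6189. Subtracting the median of all genes removes a shift common to all genes. This comparison therefore cannot show how the lists depend on scaling. Without 1 library, the log2 ratio of Gclc to Gclm lay between -2.57 and -2.24, where the exact permutation test cannot go below p = 0.0571, so these p-values say nothing about its stability.

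The replicate numbers did not pair the mice, since the correlations of same-numbered libraries were 0.116, -0.188, 0.158 and -0.262 and not every library correlated best with its own number. With the number as a block, 4960 genes were called and 7 of the 8 genes passed, Gpx4 being the one added.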
